A study of Homo sapiens with 12 samples.

Results

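The oxidative phosphorylation subunits are the nuclear-encoded proteins of the 5 enzyme complexes that carry out mitochondrial respiration and ATP synthesis. They were taken here by gene symbol: every probe whose platform symbol began with NDUFA, NDUFB, NDUFC, NDUFS, NDUFV, UQCR, COX4, COX5, COX6, COX7, COX8 or ATP5, or was CYC1 or one of SDHA to SDHD. The rule took 85 probes for 71 of the 13881 genes measured, and a gene with several probes was read by the brightest of them. Of the 71 genes, 31 encode subunits of complex I, 2 of complex II, 7 of complex III, 13 of complex IV and 12 of complex V. The remaining 6 are no subunits of these complexes. NDUFAF1 and NDUFAF2 are complex I assembly factors, and COX7A2L and COXFA4L2 are paralogues of complex IV subunits. EMC8, a subunit of a protein complex of the endoplasmic reticulum, and DMAC2L carried the older symbols COX4NB and ATP5S. The arrays compared cells labelled HepG2, a human hepatocarcinoma line, after 25 µM glycyrrhizin, 25 µM silymarin or 25 µM ursodeoxycholic acid, with mock-treated controls of the same line, 3 arrays in each group. Glycyrrhizin comes from liquorice root and silymarin, a set of flavonolignans, from milk thistle seed, and ursodeoxycholic acid is a bile acid used as a drug. The exposure time is not given in the sources used here, and the labels leave unsaid whether the 3 arrays per group stand for 3 cultures. The p-values below therefore weigh differences against a spread between arrays that may be no more than technical.

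Complex I oxidises NADH and complex II succinate, and both pass electrons to ubiquinone in the inner mitochondrial membrane. Complex III carries them on to cytochrome c and complex IV to oxygen, while complexes I, III and IV pump protons whose return through complex V, the ATP synthase, drives ATP formation. The liver uses this pathway to burn fatty acids and to pay for gluconeogenesis and urea synthesis, whereas many carcinoma lines grown in glucose-rich medium draw much of their ATP from glycolysis. Most subunits are encoded in the nucleus and are made in ratio to those encoded by mitochondrial DNA, which the symbol rule does not take.

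Each value is the log2 of the intensity that the authors deposited for a probe, so a difference of 1 is a doubling, and a difference is the mean of the first-named group minus the mean of the second. Array medians over all genes lay between 6.75 and 6.80, and at the same rank the 27561 probe values differed between the highest and the lowest array by a median of 0.018. Ursodeoxycholic acid replicate 1 and silymarin replicate 2 correlated least with the other arrays across genes, with a median r of 0.908 and 0.911, against 0.922 to 0.938 for the other 10. The median r was 0.934 within groups and 0.933 between them. For the tissue label, 13 of 16 listed hepatocyte genes were measured with a median of 6.79, close to the median gene at 6.70. The 11 measured of 14 neuroblast and sympathetic neuron genes had a median of 8.77, from TH at 12.49, STMN2 at 11.08 and ISL1 at 10.15 down to CHGB at 5.66, GAP43 at 5.20 and ELAVL4 at 3.28, the last 3 below the median gene. High levels were not particular to that list. The 5 measured muscle genes had a median of 8.94 and the 6 endothelial genes 7.79. Fibroblast and stellate genes had 6.29 and leukocyte genes 5.49. Probes differ in how strongly they bind, and no detection call came with the values used here, so these levels do not settle which genes the cells express. None of the 49 measured markers of the 6 cell types listed passed the adjusted threshold in any comparison of groups. At an unadjusted p under 0.05 there were 4 against control with glycyrrhizin, 1 with silymarin and 5 with ursodeoxycholic acid, or 8.16%, 2.04% and 10.2%, against 5.37%, 4.89% and 5.29% of all genes. LCP1, an actin-bundling protein of leukocytes, differed from control by −1.32, −1.88 and −1.75 (SE 0.42) with the agents in that order, the one of 7 measured leukocyte genes under that p. AFP, the fetal liver protein alpha-fetoprotein, was measured lower with glycyrrhizin by 0.83 against silymarin, 0.99 against ursodeoxycholic acid and 0.73 against control (SE 0.21). The hepatocyte list did not share one direction, as 5, 7 and 4 of its 13 genes were measured higher with glycyrrhizin in that order. Against control TF was also under that p (−0.74, SE 0.28), while APOA1 differed by 0.98 (SE 0.54). The part that other cells may have in the results below was not tested. In bulk RNA, fewer cells of a type and less RNA per cell cannot be told apart.

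Over the 71 genes the median level was above that of all genes and the median spread below it, though not the spread of complex V. Genes of equal brightness were not set beside them. Of the 71 genes, 43 lay above the median gene and 19 in the brightest 10% of all genes. Their median residual SD, the spread between arrays of one group, was 0.29, against 0.43 over all genes. It was lowest in complex IV at 0.18 and highest in complex V at 0.49, with 0.31 in complex I and 0.28 in both complexes II and III. The plot of spread against brightness shows that the scatter was widest among the dim probes. The brightest probes were COX8A at 15.88, a small structural subunit of complex IV, and ATP5F1B at 15.85, the catalytic beta subunit of the ATP synthase. COX8A ran from 57036 to 65061 on the linear scale, or 87.5% to 99.8% of the highest value in the table, so a large increase could not have been read there. COX5A and ATP5F1B reached 99.8% and 95.1% of that value. Elsewhere the brightest and dimmest subunits were NDUFS4 at 14.11 and NDUFA5 at 4.23 in complex I, and SDHB at 8.60 and SDHD at 6.66 in complex II. In complex III they were UQCRC2 at 14.53 and UQCRH at 5.40. The dimmest of complex IV was COX4I1 at 5.59 and of complex V ATP5MC2 at 4.17. These are probe levels and give no ratio between the transcripts.

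**Figure D1:**
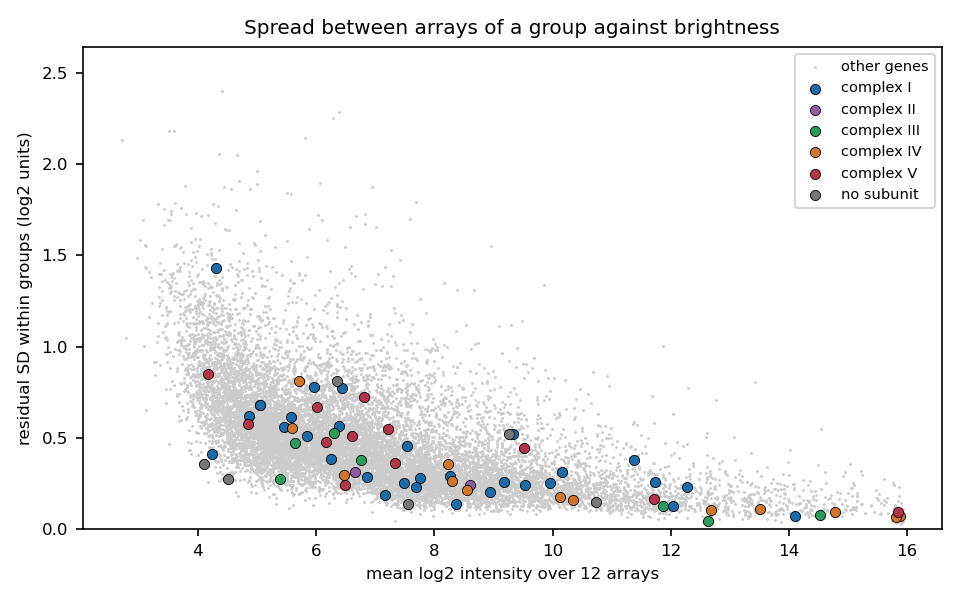
Residual SD between arrays of one group (vertical axis, log2 units) against mean log2 intensity over the 12 arrays (horizontal axis) for the genes of the 5 complexes, the 6 genes that are no subunits and all other genes (small grey points). Scatter was larger among dim probes, with a median of 0.18 in the bright complex IV and 0.49 in complex V.

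With 3 arrays a group the precision came from this spread pooled in the model with that of other genes. For a gene of small spread the pooling widened the interval, as in CYC1 of complex III, with a residual SD of 0.04 and an SE of 0.16. The 95% interval of a difference reached a median of 0.58 to either side over the 71 genes, a 1.49-fold change. For the 43 genes brighter than the median gene it was 0.50, or 1.42-fold, and for the 28 dimmer genes 0.93, or 1.91-fold. The intervals of complex IV were the narrowest at 0.45 and those of complex V the widest at 0.84.

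Promoter windows were set beside the measurements for 6 of the subunits named in the comparisons below. ATP5F1E was picked for the agents against control, and NDUFA6, NDUFB7, NDUFS8, NDUFA1 and COX7B for glycyrrhizin against silymarin. Others that stand out in those comparisons, among them ATP5MF, NDUFA9, COX6C and UQCRC2, are not printed. Each window runs from 250 bases before to 50 after the annotated start in RefSeq, build GRCh38.p14, 5′ to 3′ on the gene's strand. Capitals mark matches, on either strand, to the letters searched: CCGGAAG for the ETS family factor GABP, CGCATGCG for NRF1, AAGATGGC for YY1 and GGGCGGG for SP1. No marked match overlapped another in these 6 windows.
ATP5F1E, chr20:59032286-59032585, minus strand: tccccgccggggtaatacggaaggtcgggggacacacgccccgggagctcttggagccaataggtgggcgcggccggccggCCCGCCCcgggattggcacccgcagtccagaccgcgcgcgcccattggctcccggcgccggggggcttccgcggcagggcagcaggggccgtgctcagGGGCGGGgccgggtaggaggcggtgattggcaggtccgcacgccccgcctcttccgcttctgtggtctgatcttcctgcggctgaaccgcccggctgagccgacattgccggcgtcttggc
NDUFA6, chr22:42090723-42091022, minus strand: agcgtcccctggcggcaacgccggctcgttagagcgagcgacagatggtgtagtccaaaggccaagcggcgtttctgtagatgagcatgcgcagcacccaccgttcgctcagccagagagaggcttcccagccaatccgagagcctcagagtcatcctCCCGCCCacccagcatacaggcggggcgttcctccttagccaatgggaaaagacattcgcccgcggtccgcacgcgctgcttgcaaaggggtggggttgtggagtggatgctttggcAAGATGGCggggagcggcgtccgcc
NDUFB7, chr19:14572017-14572316, minus strand: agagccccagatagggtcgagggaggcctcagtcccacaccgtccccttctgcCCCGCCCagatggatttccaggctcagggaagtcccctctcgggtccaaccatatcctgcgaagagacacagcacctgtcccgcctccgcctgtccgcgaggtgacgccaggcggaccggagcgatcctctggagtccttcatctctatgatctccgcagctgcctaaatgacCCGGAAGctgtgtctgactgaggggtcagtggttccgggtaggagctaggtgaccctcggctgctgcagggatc
NDUFS8, chr11:68030431-68030730, plus strand: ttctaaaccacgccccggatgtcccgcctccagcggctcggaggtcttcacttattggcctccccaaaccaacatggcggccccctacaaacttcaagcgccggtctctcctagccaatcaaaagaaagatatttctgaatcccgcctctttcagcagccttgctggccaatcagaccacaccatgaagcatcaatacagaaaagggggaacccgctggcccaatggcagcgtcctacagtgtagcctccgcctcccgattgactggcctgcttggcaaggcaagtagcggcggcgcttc
NDUFA1, chrX:119871582-119871881, plus strand: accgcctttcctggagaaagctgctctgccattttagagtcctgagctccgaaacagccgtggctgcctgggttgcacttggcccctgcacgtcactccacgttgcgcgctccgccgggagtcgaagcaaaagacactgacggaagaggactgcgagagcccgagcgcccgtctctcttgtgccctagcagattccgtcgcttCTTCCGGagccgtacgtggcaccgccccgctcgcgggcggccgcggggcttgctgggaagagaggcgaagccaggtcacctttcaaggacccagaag
COX7B, chrX:77899218-77899517, plus strand: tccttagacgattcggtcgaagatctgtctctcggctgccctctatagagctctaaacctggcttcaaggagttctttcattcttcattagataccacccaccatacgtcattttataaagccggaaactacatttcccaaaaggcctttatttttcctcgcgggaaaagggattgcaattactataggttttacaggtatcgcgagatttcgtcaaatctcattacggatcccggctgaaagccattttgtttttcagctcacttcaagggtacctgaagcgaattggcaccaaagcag

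GABP, NRF1 and YY1 are factors known to bind promoters of respiratory chain genes. Windows were found for 57 of the 71 genes. The GABP letters occurred in 18 of them, or 31.6%, against 12.2% of 27305 genes with a window. The NRF1 letters occurred in 9 of the 57, or 15.8%, against 2.46% of all genes, and the YY1 letters likewise in 9, against 3.52%. The SP1 letters were present in 17, or 29.8%, against 36.7% of all. Among the windows printed, the GABP letters began at −24 in NDUFB7 and −47 in NDUFA1, counted from the start, and the YY1 letters at 26 in NDUFA6. NDUFA6 and NDUFB7 held the SP1 letters once and ATP5F1E at 2 places. The windows of NDUFS8 and COX7B held none of the letters searched. A match describes these letters only and says nothing of binding in these cells.

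No subunit differed between an agent and control at an adjusted p under 0.05, the threshold used throughout with Benjamini-Hochberg adjustment of limma p-values over the 13881 genes. The same held for all genes, with 0% called for each of the 3 agents. The lowest adjusted p among the 71 genes was 0.506 for glycyrrhizin, 0.925 for silymarin and 0.529 for ursodeoxycholic acid. The median difference over the 71 genes was 0.05, −0.01 and −0.01 in that order, against 0.02 over all genes for each agent. Genes that miss this threshold are described by the unadjusted p and by whether the 3 arrays of one group lie wholly above or below those of the other. The 3 comparisons share the same control arrays, so a high or low control array moves all of them together.

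**Figure D2:**
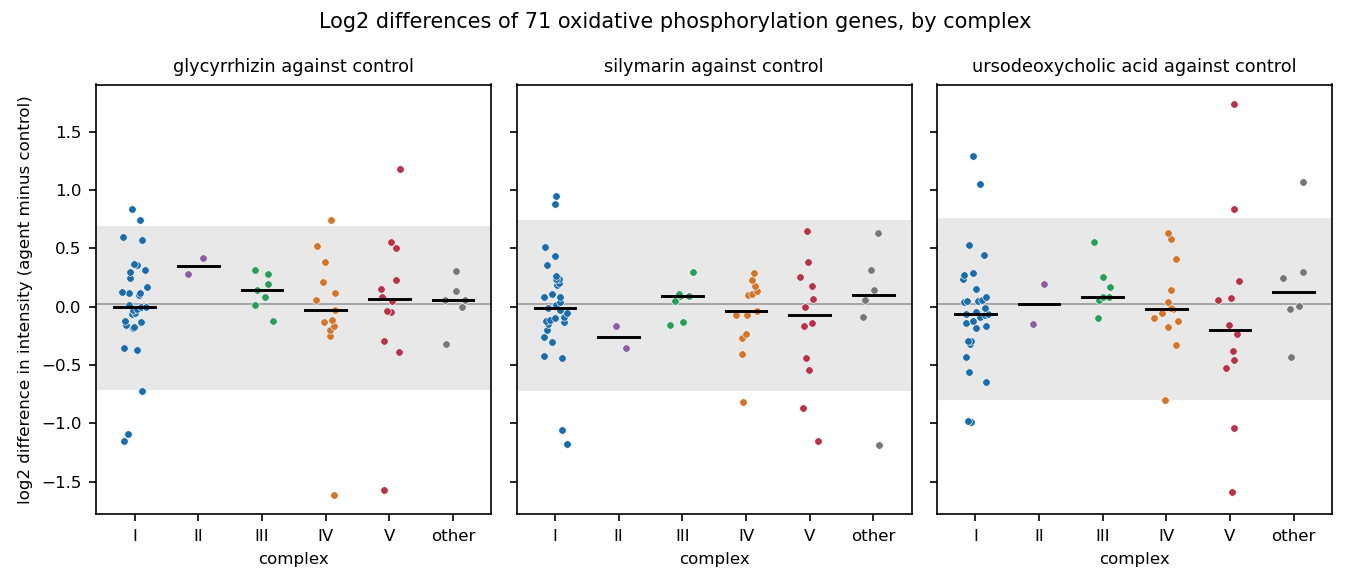
Difference of each agent from control (vertical axis, log2 units) for the members of each complex, 1 point per gene, with the median of the complex as a black line, the median of all genes as a grey line and the range from the 5th to the 95th percentile of all genes as a grey band. The medians over the 71 genes were 0.05, −0.01 and −0.01 for glycyrrhizin, silymarin and ursodeoxycholic acid.

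By complex, complex I had median differences of −0.0026 with glycyrrhizin, −0.01 with silymarin and −0.06 with ursodeoxycholic acid. Complex III had 0.14, 0.09 and 0.08, complex IV −0.03, −0.04 and −0.02, and complex V 0.06, −0.07 and −0.20, in the same order. Complex II, with its iron-sulphur subunit SDHB and membrane anchor SDHD alone, had 0.35, −0.26 and 0.02. The narrowest interval belonged to CYC1, the cytochrome c1 of complex III, which averaged 12.66 ± 0.04, 12.52 ± 0.05 and 12.70 ± 0.01 with the agents in the same order, against 12.65 ± 0.05 in control (SD, n = 3 each). Its 95% interval reached 1.28-fold to either side of differences of 0.02, −0.13 and 0.05. That width came mostly from pooling with other genes and not from its own spread. The silymarin arrays of CYC1, at 12.46 to 12.56, all lay below the control arrays, at 12.61 to 12.70. The catalytic ATP5F1B differed by 0.08, 0.06 and 0.06 (SE 0.17), and NDUFS4, an accessory subunit of the matrix arm of complex I, by 0.01, −0.03 and 0.15 (SE 0.17). At the other end stood NDUFB5 of the complex I membrane arm, whose interval reached 4.75-fold. CYC1 and NDUFB5 were named after their values were seen. The plot of differences by complex shows points on both sides of 0 in each of the larger complexes.

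Glycyrrhizin against control. Of the 71 genes 5 had an unadjusted p under 0.05, or 7.04% against 5.37% of all genes. One direction at a time, 1 was measured higher and 4 lower, against 2.32% and 3.05% of all genes. The groups did not overlap for 11, or 15.5%, against 12.7% of all genes. Measured lower were ATP5F1E of the ATP synthase, NDUFB7 and NDUFS8 of complex I and COX7B2, a testis isoform of complex IV. Measured higher was COX4I2, an isoform of complex IV best known from lung. ATP5F1E, the epsilon subunit in the central stalk of the ATP synthase, read 6.0, 5.26 and 5.75 with glycyrrhizin, against 7.17, 6.74 and 7.81 in control. All 3 treated arrays lay below all 3 control arrays, a difference of −1.57 (SE 0.37, 95% interval −2.39 to −0.75) or 2.97-fold, with an unadjusted p of 0.00149 and an adjusted p of 0.506 in limma. NDUFB7, an accessory subunit of the membrane arm of complex I, read 7.80, 9.43 and 8.33, against 9.67, 9.34 and 9.83 in control. Replicate 2 lay among the controls and the other arrays lay well below them, so the difference of −1.09 (SE 0.40, limma adjusted p = 0.809) became −0.73 without glycyrrhizin replicate 1 and −1.54 without replicate 2. NDUFS8, a core iron-sulphur subunit on the path to ubiquinone, had the same layout, with 10.59, 11.47 and 10.62 against 11.42, 11.58 and 11.86 in control. Its difference was −0.72 (SE 0.31). COX4I2 read 8.86, 8.78 and 8.76, against 8.44, 8.15 and 8.25 in control, a difference of 0.52 (SE 0.22) with no overlap of the groups. On the higher side the next smallest p-values belonged to COX6B1 (0.38, SE 0.20) and the c subunit gene ATP5MC2 (1.18, SE 0.62), both with an interval that includes 0. The ATP5MC2 difference was 0.69 without control replicate 3 and 0.76 without glycyrrhizin replicate 2. The count of 5 was 2 without control replicate 3 and 3 without glycyrrhizin replicate 1, or 2.82% and 4.23%, against 4.86% and 4.18% of all genes.

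Silymarin against control. In this comparison 3 of the 71 genes had an unadjusted p under 0.05, or 4.23% against 4.89% of all genes. All 3 were measured lower, as were 2.06% of all genes, while 2.83% of all genes were measured higher. The groups did not overlap for 11 genes, or 15.5%, against 10.8% of all. The 3 genes were ATP5MF and ATP5F1E of the ATP synthase and COX6C of complex IV. ATP5MF, the f subunit of the membrane part of the ATP synthase, read 6.29, 5.67 and 6.02 with silymarin, against 6.85, 6.71 and 7.04 in control. The groups were apart, with a difference of −0.87 (SE 0.23, 95% interval −1.39 to −0.36) or 1.83-fold, an unadjusted p of 0.00326 and an adjusted p of 0.925 in limma. ATP5F1E read 5.60, 6.55 and 6.11, again below every control array, a difference of −1.15 (SE 0.37). COX6C, a nuclear-encoded structural subunit of complex IV, read 12.41, 12.62 and 12.52, against 12.81, 13.03 and 12.93 in control. Its difference was −0.41 (SE 0.18), or 1.33-fold, small but measured on a bright probe. Among genes measured higher, p was smallest for EMC8 (0.63, SE 0.30), NDUFB10 of the complex I membrane arm (0.94) and NDUFA6 (0.43, SE 0.21), and no interval of these left out 0. The NDUFB10 difference was 0.50 without control replicate 1, at 3.49. The count of 3 became 6 without control replicate 2 and 5 without ursodeoxycholic acid replicate 1, an array that enters only through the shared estimate of spread. These were 8.45% and 7.04% of the members, against 4.35% and 5.49% of all genes.

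Ursodeoxycholic acid against control. Here 10 of the 71 genes had an unadjusted p under 0.05, or 14.1% against 5.29% of all genes. Of these 6 were measured higher and 4 lower, against 2.64% and 2.65% of all genes. The groups did not overlap for 15, or 21.1%, against 9.5% of all. Both shares were above those of all genes, but that difference was not tested. The count was 3 without control replicate 3, or 4.23% against 4.19% of all genes. With any other single array left out it was 7 to 10, or 9.86% to 14.1%, against 4.69% to 6.69% of all genes. It was 4 among the 49 members that remained without the dimmer 50% of probes, or 8.16% against 5.52%. Of the 10, 8 were dimmer than the median gene, where the spread is wide. ATP5F1E read 5.18, 6.18 and 5.59 with ursodeoxycholic acid, all below the lowest control at 6.74. Its difference of −1.59 (SE 0.37, 95% interval −2.41 to −0.77) or 3.02-fold had an unadjusted p of 0.00133 and an adjusted p of 0.529 in limma. NDUFA9, an accessory subunit at the junction of the complex I arms, read 7.47, 6.09 and 5.77, against 4.82, 5.18 and 5.45 in control. The groups did not overlap, but replicate 1 stood above the rest, and the difference of 1.29 (SE 0.42) was 0.78 without it. The same array was the lowest for NDUFV3, a small subunit of the NADH-oxidising end of complex I, with 4.20 beside 5.63 and 5.40, against 5.68, 5.96 and 6.55 in control. That difference of −0.99 (SE 0.39) was −0.55 without it. NDUFV1, the flavin-bearing subunit that takes electrons from NADH, read 9.57, 9.15 and 9.83, against 10.03, 9.84 and 10.37 in control, a difference of −0.56 (SE 0.24) on a bright probe. The c subunit of the ATP synthase, which forms the rotating ring in the membrane, is encoded by several genes with the same mature protein, and 2 of them were measured on opposite sides of control. ATP5MC3 read 11.50, 11.38 and 11.42, against 11.86, 11.77 and 12.23 in control (difference −0.52, SE 0.20). ATP5MC2, dim, read 5.18, 5.01 and 5.05, against 3.92, 3.74 and 2.37 in control (difference 1.74, SE 0.62). Neither pair of groups overlapped. The other genes under the unadjusted threshold, all measured higher, were EMC8 (1.07, SE 0.30), NDUFA8 (1.05), UQCRH (0.56) and the muscle isoform COX7A1 (0.63). NDUFA8 and UQCRH are small subunits on the intermembrane side of complexes I and III. The NDUFA8 difference was 0.57 without control replicate 2, at 4.08, and 0.68 without ursodeoxycholic acid replicate 2, at 6.81.

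Across the agents, 3 genes had all 9 treated arrays beyond all 3 control arrays, or 4.23% of the 71 against 0.792% of all genes. The share of all genes was 0.36% above control and 0.432% below it. ATP5F1E lay at 5.18 to 6.55 on the treated arrays, against 6.74 to 7.81 in control. COX6C lay at 12.41 to 12.76, against 12.81 to 13.03 in control, and the gap between the groups was narrow. UQCRC2, a core protein of complex III, was the one on the higher side, at 14.47 to 14.74 against 14.38 to 14.42. Its differences were 0.19 with glycyrrhizin, 0.11 with silymarin and 0.17 with ursodeoxycholic acid, each with an SE of 0.17, so the model, which pools spread with other genes, did not separate them from 0. Since every treated array is set against the same 3 controls, this pattern is 1 observation and not 3. ATP5F1E had the smallest p of the 71 genes in the F test over the 4 groups, 0.00418 before adjustment, with an adjusted p of 0.446 in limma. In that test 7 of the 71, or 9.86%, had an unadjusted p under 0.05, against 6.71% of all genes, and none of the 71 against 0.0216% of all genes passed after adjustment. The count of 7 was 4 without silymarin replicate 3, or 5.63% against 7.05% of all genes. Besides ATP5F1E the genes were NDUFA6, NDUFA9, NDUFB7, NDUFV1, ATP5MF and EMC8.

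**Figure D3:**
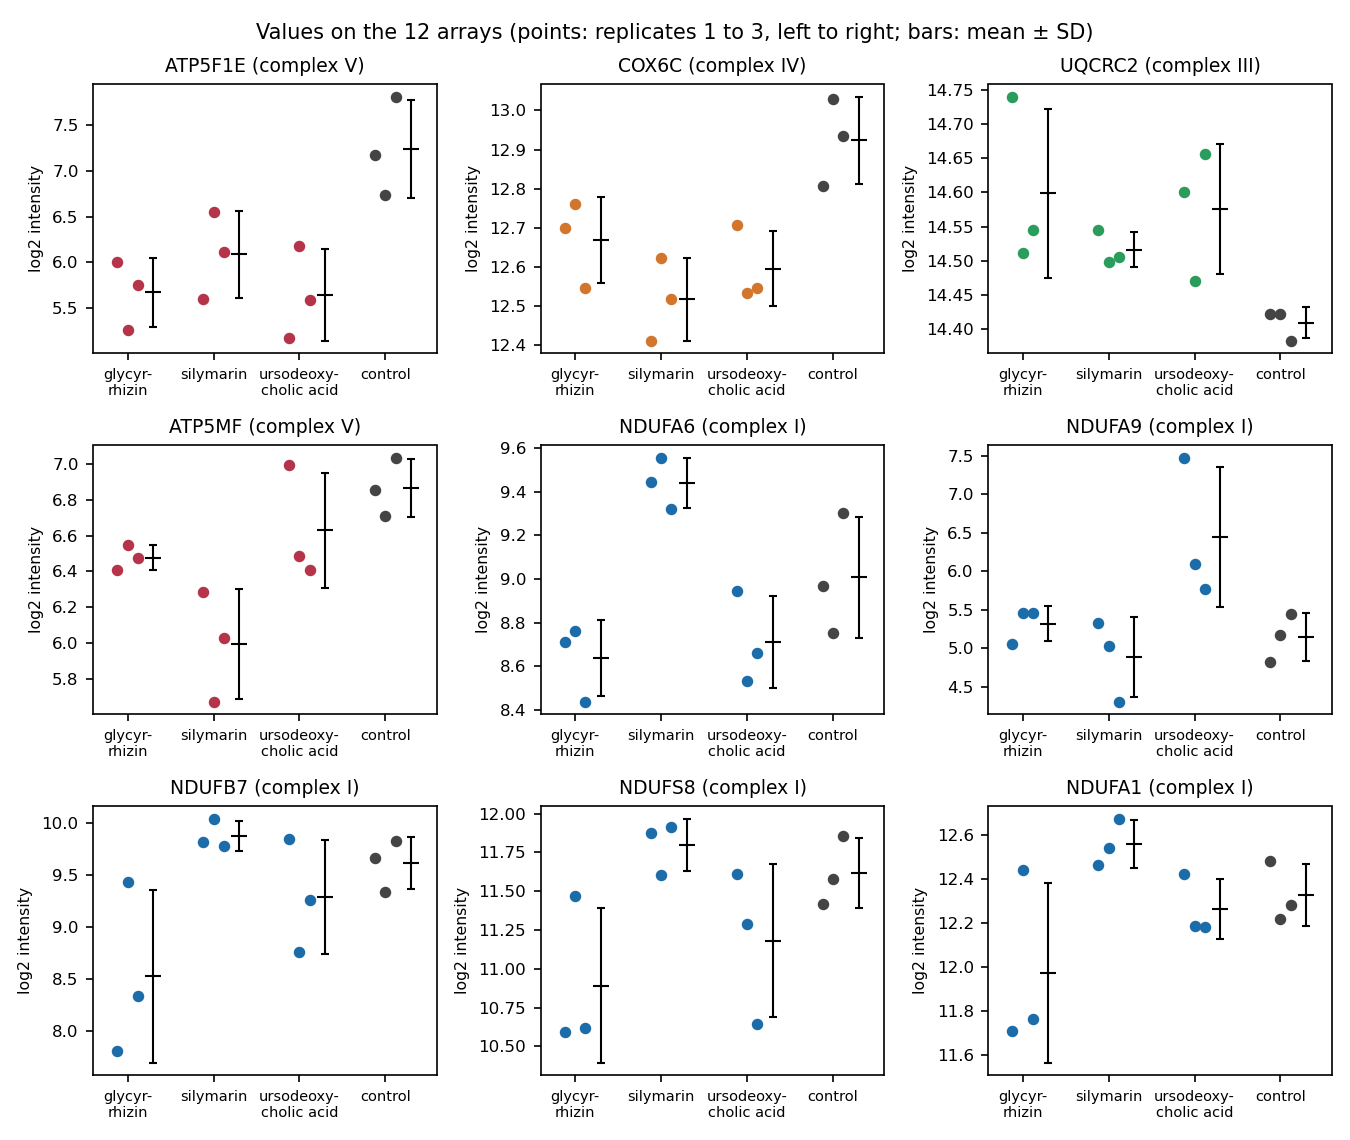
Log2 intensity (vertical axes, which differ between panels and do not start at 0) of 9 genes on each array of the glycyrrhizin, silymarin, ursodeoxycholic acid and control groups, with the 3 replicates as points and the mean ± SD as bars. ATP5F1E and COX6C lie below control on all 9 treated arrays, UQCRC2 above it, and glycyrrhizin replicates 1 and 3 are low for NDUFB7, NDUFS8 and NDUFA1.

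Glycyrrhizin against silymarin. This pair gave the lowest adjusted p of any member, and none passed, while 0.0504% of all genes did. Of the 71 genes 8 had an unadjusted p under 0.05, or 11.3% against 9.31% of all genes. With glycyrrhizin 2 were measured higher and 6 lower, against 3.41% and 5.9% of all genes. The groups did not overlap for 18, or 25.4%, against 18.2% of all. Of the 8 genes, 4 belong to complex I, all measured lower, and the 2 measured higher are SDHB and SDHD of complex II. Complex I as a whole had no such direction, with 16 of its 31 genes above 0 and a median of 0.05. NDUFA6, which holds the acyl carrier protein at the matrix side of complex I, read 8.71, 8.76 and 8.44 with glycyrrhizin, against 9.45, 9.55 and 9.32 with silymarin. The groups were far apart relative to their spread, with a difference of −0.80 (SE 0.21, 95% interval −1.28 to −0.33) or 1.75-fold and an adjusted p of 0.231 in limma. Control arrays, at 8.97, 8.75 and 9.30, overlapped those of glycyrrhizin and lay below those of silymarin. NDUFB7 read 7.80, 9.43 and 8.33, against 9.81, 10.04 and 9.77 with silymarin, a difference of −1.35 (SE 0.40, adjusted p = 0.287 in limma). NDUFS8 differed by −0.91 (SE 0.31) and NDUFA1, a small subunit of the complex I membrane arm, by −0.59 (SE 0.23), with 11.71, 12.44 and 11.77 against 12.46, 12.54 and 12.68. In all 3 of these genes glycyrrhizin replicates 1 and 3 were low and replicate 2 lay nearer the other groups. The count of 8 was 2 without glycyrrhizin replicate 1, 5 without replicate 2, 3 without replicate 3 and 5 without silymarin replicate 3. These were 2.82%, 7.04%, 4.23% and 7.04% of the members, below the 7.10%, 8.44%, 6.60% and 10.5% of all genes. Without silymarin replicate 1 or 2 the member share was 11.3% or 8.45%, above the 7.74% or 7.02% of all genes.

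Those 3 complex I genes, singled out after their values were seen, varied together over the 12 arrays. NDUFB7 and NDUFA1 correlated with r = 0.92, NDUFB7 and NDUFS8 with 0.83, and NDUFS8 and NDUFA1 with 0.83. With the group means taken out, r was 0.84, 0.64 and 0.69 in the same order. The shared layout of the glycyrrhizin arrays, seen before the genes were singled out, remains in these deviations. The r values therefore restate that layout in part and are no separate evidence of it. The mean r of deviations over all pairs was −0.0004 among the 71 genes and 0.0054 among all genes. Positive and negative r cancel in such a mean, so it cannot tell how common agreement of this size was. The 12 arrays share their RNA, labelling and normalization across genes, and these r values are descriptions.

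In complex II, SDHB read 8.86, 8.90 and 8.96 with glycyrrhizin, against 8.75, 7.85 and 8.36 with silymarin, a difference of 0.58 (SE 0.23). Silymarin replicate 2 was the lowest array, and the difference was 0.35 without it. SDHD read 6.99, 7.18 and 6.82, against 6.12, 6.74 and 6.24, a difference of 0.63 (SE 0.27). Neither passed after adjustment (limma adjusted p = 0.459 and 0.510). COX7B of complex IV read 14.64, 14.58 and 14.56 with glycyrrhizin, against 15.05, 14.96 and 14.97 with silymarin. Its groups were separated by far more than their spread, SDs of 0.04 and 0.05, for a difference of −0.40 (SE 0.17) or 1.32-fold. The adjusted p was 0.519 in limma, and 0.0462 when the model let the spread depend on brightness and estimated it robustly, the one setting in which a member passed. In that setting 1.46% of all genes passed, and 1 of 71 members is 1.41%. DMAC2L (−0.64) was the eighth gene, and on the higher side NDUFS3, a core subunit of complex I, came next with 0.76 (SE 0.36), its interval including 0. It was 0.31 without silymarin replicate 3. The plot of intervals for glycyrrhizin against silymarin shows how few of them left out 0.

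**Figure D4:**
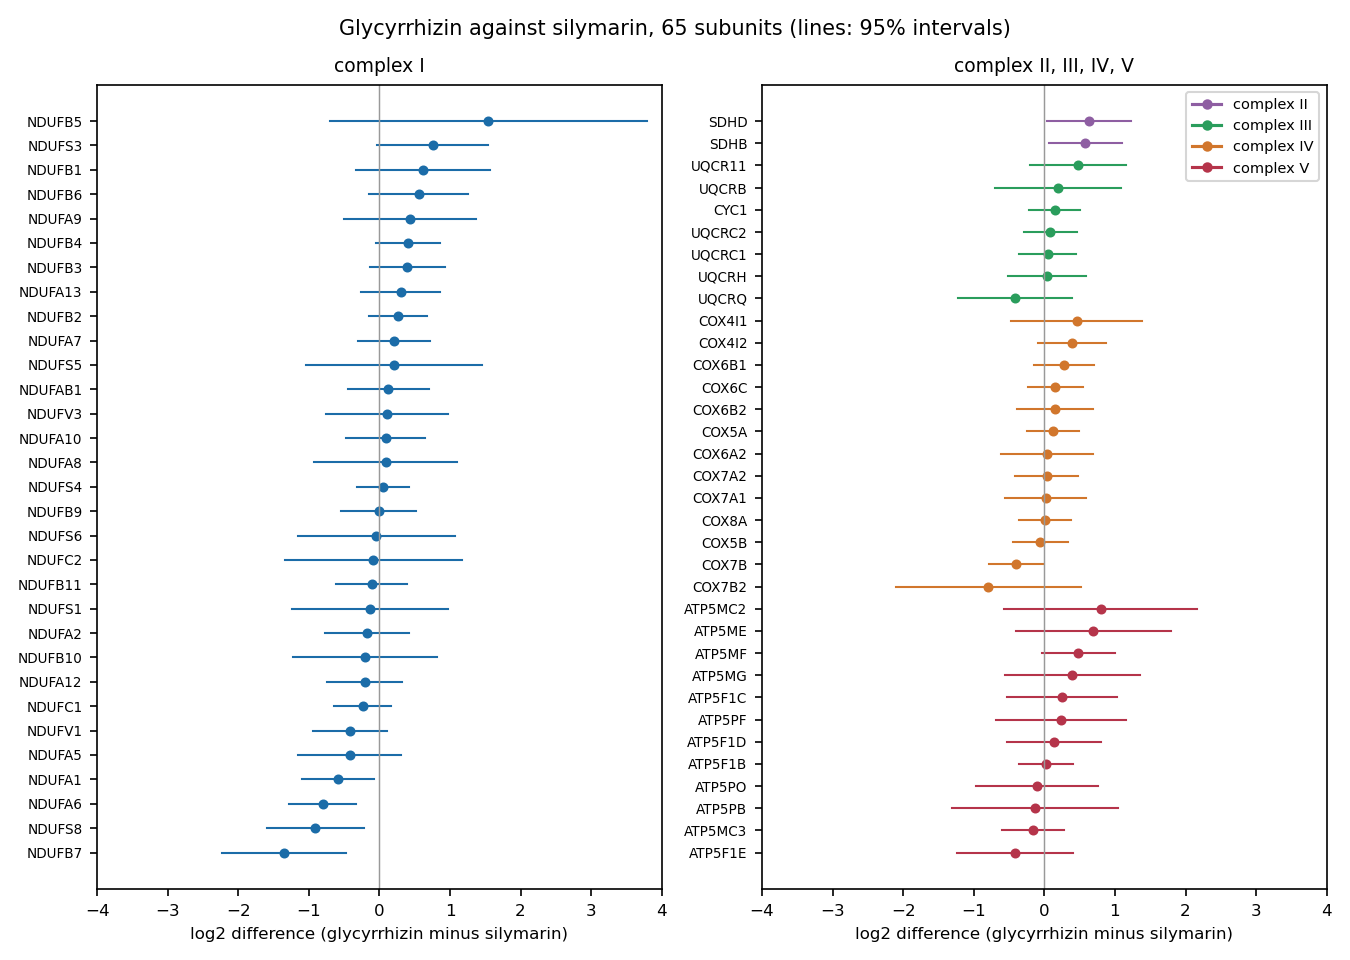
Difference between glycyrrhizin and silymarin (horizontal axis, log2 units, glycyrrhizin minus silymarin) with its 95% interval for the 65 subunits of complexes I to V. NDUFA6, NDUFB7, NDUFS8, NDUFA1 and COX7B lie wholly below 0, and SDHB and SDHD wholly above it.

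Glycyrrhizin against ursodeoxycholic acid. Here 4 of the 71 genes had an unadjusted p under 0.05, or 5.63% against 4.68% of all genes. With glycyrrhizin 2 were measured higher and 2 lower, against 2.47% and 2.2% of all genes, and the groups did not overlap for 11 genes, or 15.5% against 11.6%. None passed after adjustment, and 0% of all genes did. NDUFV3 was measured higher with glycyrrhizin, at 6.39, 6.22 and 5.93 against 4.20, 5.63 and 5.40 (difference 1.11, SE 0.39). NDUFA9 was measured lower, at 5.05, 5.45 and 5.45 against 7.47, 6.09 and 5.77 (difference −1.12, SE 0.42). Ursodeoxycholic acid replicate 1 sets much of both, and without it they were 0.67 and −0.61, and the count of 4 was 1. It was 7 without ursodeoxycholic acid replicate 2 and 2 without glycyrrhizin replicate 1. In the same order these counts were 1.41%, 9.86% and 2.82% of the members, against 4.23%, 6.35% and 4.01% of all genes. COX6B1, a subunit at the intermembrane face of complex IV, was higher by 0.48 (SE 0.20), and EMC8 differed by −0.76, or −0.48 without ursodeoxycholic acid replicate 3. Next in order on the higher side was NDUFS5 (1.23, with 4.20 on ursodeoxycholic acid replicate 1 beside 5.98 and 6.72, and 0.51 without that array) and on the lower side COX7A1 (−0.51).

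Silymarin against ursodeoxycholic acid. Of the 71 genes 7 had an unadjusted p under 0.05, or 9.86% against 8.04% of all genes. With silymarin 4 were measured higher and 3 lower, against 4.76% and 3.28% of all genes. The groups did not overlap for 16, or 22.5%, against 14.7%. After adjustment none of the 71 passed, against 0.0288% of all genes, the lowest adjusted p being 0.448 in limma for NDUFA9. NDUFA6 (0.73, SE 0.21), NDUFV1 (0.80, SE 0.24) and NDUFV3 (1.0, SE 0.39) of complex I were measured higher, and so was ATP5PB (1.22, SE 0.53), the b subunit in the peripheral stalk of the ATP synthase. NDUFV1 read 10.23, 10.20 and 10.52 with silymarin, against 9.57, 9.15 and 9.83 with ursodeoxycholic acid. The arrays were apart, and its control arrays, from 9.84 to 10.37, overlapped those of silymarin. Measured lower were NDUFA9 (−1.56, SE 0.42), NDUFS3 (−0.89, SE 0.36) and ATP5MF (−0.64, SE 0.23). NDUFS3 rested on silymarin replicate 3, at 6.12 beside 7.69 and 7.22, and was −0.45 without it. The ATP5PB and NDUFV3 differences were 0.52 and 0.56 without ursodeoxycholic acid replicate 1.

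Complex IV has tissue isoforms, and 5 of its 13 genes on the arrays are such forms. COX4I1, the common isoform of its subunit, averaged 5.93 ± 0.32, 5.47 ± 0.77 and 5.77 ± 0.51 with glycyrrhizin, silymarin and ursodeoxycholic acid, against 5.19 ± 0.51 in control (SD, n = 3 each). Its oxygen-responsive counterpart COX4I2 averaged 8.80 ± 0.05, 8.41 ± 0.39 and 8.69 ± 0.07, against 8.28 ± 0.15 in control. These are different probes, so their levels cannot be ranked. COX6A2, the muscle form, had differences from control of −0.20, −0.24 and −0.13 (SE 0.30), and COX6B2, a testis form, −0.12, −0.27 and −0.06 (SE 0.25). COX7A1, the heart and muscle form, read 6.66, 6.94 and 7.07 with ursodeoxycholic acid, against 6.22, 6.28 and 6.28 in control, and its differences with glycyrrhizin and silymarin were 0.12 and 0.10 (SE 0.26). None of the 5 measured muscle markers had an unadjusted p under 0.05 in an agent's comparison with control. COX7B2 averaged 4.90 ± 0.56, 5.70 ± 0.54 and 5.71 ± 1.27 with the agents in the same order, against 6.52 ± 0.65 in control, dim and scattered. COX8A stayed within its spread, at 15.88 ± 0.02, 15.87 ± 0.09 and 15.89 ± 0.08 against 15.90 ± 0.08, though near the top of the scale. COXFA4L2, a hypoxia-induced paralogue of a complex IV subunit, averaged 7.51 ± 0.09, 7.52 ± 0.09 and 7.71 ± 0.23, against 7.46 ± 0.06.

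The choice of probe mattered for the genes that had 2. Of 14 such genes, 7 had probes more than 2 log2 units apart, with a median gap of 2.03. COX7B had probes at 14.78 and 5.42, UQCRC2 at 14.53 and 6.08, NDUFA2 at 10.17 and 6.42, NDUFA6 at 8.95 and 5.75. COX7A2L, ATP5F1D and NDUFAB1 had gaps of 2.97, 2.76 and 2.14. Against control the brighter and dimmer probe agreed in sign for 4 of 14 genes with glycyrrhizin, 7 with silymarin and 5 with ursodeoxycholic acid. For NDUFA6 the dimmer probe gave 0.73 (SE 0.45) in glycyrrhizin against silymarin, opposite to the brighter probe, and the mean of both gave −0.04. The dimmer UQCRC2 probe gave 0.05, −0.19 and 0.38 (SE 0.33) with the agents in the usual order, and the dimmer COX7B probe −0.13 (SE 0.39) in glycyrrhizin against silymarin. For COX6B1 the second probe gave −0.54 (SE 0.24) with glycyrrhizin, where the brighter gave 0.38. For NDUFV3, whose probes lie at 5.85 and 5.51, the second gave 0.28 (SE 0.63) with ursodeoxycholic acid, where the brighter gave −0.99. For UQCRH, with probes at 5.40 and 5.02, the second gave −0.53 (SE 0.77) with ursodeoxycholic acid, where the brighter gave 0.56. The mean of both UQCRH probes gave 0.014. Which probe reads the transcript better was not tested. ATP5F1E, COX6C, NDUFB7, NDUFS8 and NDUFA1 have 1 probe each.

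**Figure D5:**
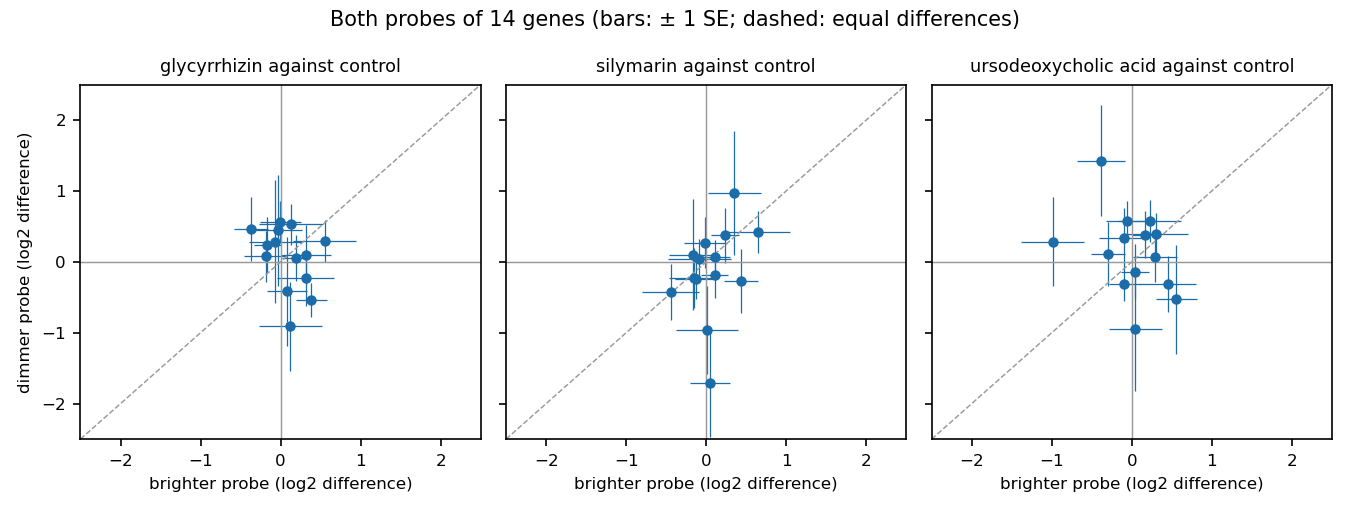
Differences from control (log2 units) by the brighter and the dimmer probe of the 14 genes that have 2, with ±1 SE, for each agent. The 2 probes agreed in sign for 4 genes with glycyrrhizin, 7 with silymarin and 5 with ursodeoxycholic acid.

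Around the complexes, 78 of 96 listed genes of assembly, electron and nucleotide carriers, mitochondrial biogenesis, the tricarboxylic acid cycle and hypoxia or glycolysis control were measured. None passed after adjustment in any of the 6 comparisons. With glycyrrhizin 1 was measured higher and 3 lower at an unadjusted p under 0.05, with silymarin none, and with ursodeoxycholic acid 3 higher and 2 lower. These were 5.13%, 0% and 6.41% of the 78 genes, against 5.37%, 4.89% and 5.29% of all genes, shares close to or below those of all genes. SLC25A4 is an ADP/ATP carrier, which exchanges the product of the ATP synthase for ADP. It averaged 7.98 with glycyrrhizin, against 9.14 in control, a difference of −1.16 (SE 0.29, adjusted p = 0.608 in limma). With ursodeoxycholic acid it differed by −0.93 and with silymarin by −0.13. Other ADP/ATP carriers stood in the list, so SLC25A4 alone does not describe this exchange. Of the 10 measured genes of the carrier list, 4 were measured higher with glycyrrhizin than in control, with a median difference of −0.16. PDHA1, of the pyruvate dehydrogenase that feeds the cycle, differed by 0.63 (SE 0.24) with glycyrrhizin, and PDHB, of the same enzyme, by −0.50 (SE 0.20). TMEM126B, an assembly factor of complex I, differed by −1.53 with ursodeoxycholic acid. The 2 smallest p-values with silymarin were those of HIF1A, the oxygen-regulated transcription factor (0.49, SE 0.23), and TACO1, a translation activator for a mitochondrially encoded subunit of complex IV (0.59, SE 0.29). Between glycyrrhizin and silymarin 1 gene was measured higher and 7 lower, or 10.3% of the 78 against 9.31% of all genes, among them OGDH of the tricarboxylic acid cycle at −0.75 (SE 0.18, adjusted p = 0.206 in limma).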

How the data were processed

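Total RNA was labelled with Cy5 and hybridised to 1-colour oligonucleotide arrays, 3 for each of 4 groups, named by the agent in the labels. What the authors deposited is a linear intensity for each probe on each array. The submitters' processing notes name limma. The sources used here do not give the scanner, the background correction or the steps of normalization. From the deposited intensity the log2 value was computed, with no further normalization, offset or filter. The table held 27561 probes, of which 15650 had 1 gene symbol and 11911 none. Symbols were updated through a RefSeq table (GRCh38.p14), 17 of them among the members, leaving 13881 genes, each read by its brightest probe. limma 3.58.1 in R 4.3.3 (lmFit, eBayes) was fitted to all probes with 1 mean per group, and two-sided p-values were adjusted over genes by the Benjamini-Hochberg method. The procedure was checked on simulated data.

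The members and lists were chosen with earlier results of these data known. The genes named are those past the adjusted threshold, the 3 members with the smallest p in each direction of each comparison, the brightest and dimmest subunit of each complex, the isoform families, the genes with probes over 2 log2 units apart, and the 2 other pathway genes with the smallest p for each agent. The remaining genes under the unadjusted threshold, OGDH, PDHB, the cell type markers given, the genes beyond control on all 9 treated arrays and the 3 complex I genes that varied together were named after their values were seen. Replicate numbers are shared across groups in the labels, which do not say that they mark a pairing. The alternatives were a block for the replicate number, cyclic loess renormalization, dim probes, joining of probes, variance estimation, array weights and leaving out arrays. No column of another series was present.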

Additional observations from a re-analysis of the deposited data

How the results depend on the processing

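In 22 alternative settings no member passed the adjusted threshold in any comparison, except COX7B in glycyrrhizin against silymarin with a variance trend and robust estimation (1 member, or 1.41%, against 1.46% of all genes, limma adjusted p = 0.0462). The median difference of glycyrrhizin from control over the members, 0.05 as reported, was 0.019 after cyclic loess renormalization and 0.017 without the dimmer 50% of probes, which kept 49 of the 71 genes. Leaving out 1 array at a time, that median ran from 0.013 to 0.067, the median of silymarin against control from −0.046 to 0.014, of ursodeoxycholic acid against control from −0.026 to 0.025, of glycyrrhizin against ursodeoxycholic acid from −0.029 to 0.058 and of silymarin against ursodeoxycholic acid from −0.072 to −0.0055. The number of members past the threshold was 0 each time. With the mean of all probes of a gene, 3 of the differences with the 3 smallest p-values in each direction changed sign: COX6B1 in glycyrrhizin against control (−0.079), and NDUFV3 in glycyrrhizin against ursodeoxycholic acid (−0.043) and in silymarin against ursodeoxycholic acid (−0.12). Over all 14 genes with 2 probes, the sign changed for 8, 4 and 5 with glycyrrhizin, silymarin and ursodeoxycholic acid against control, for 1 in glycyrrhizin against silymarin, 6 in glycyrrhizin against ursodeoxycholic acid and 2 in silymarin against ursodeoxycholic acid. Over the settings the number of members with an unadjusted p under 0.05 ran from 2 to 7 for glycyrrhizin against control, 2 to 6 for silymarin against control, 3 to 10 for ursodeoxycholic acid against control, 2 to 10 for glycyrrhizin against silymarin, 1 to 7 for glycyrrhizin against ursodeoxycholic acid and 3 to 10 for silymarin against ursodeoxycholic acid. The share of all genes under that p moved with the settings too. Against control it ran from 4.11% to 6.86% with glycyrrhizin, 4.08% to 6.61% with silymarin and 3.99% to 6.69% with ursodeoxycholic acid. For glycyrrhizin against silymarin it ran from 6.60% to 14.7%, the latter beside 20.4% of the 49 members without the dimmer 50% of probes. Against ursodeoxycholic acid it ran from 4.01% to 6.35% for glycyrrhizin and 5.84% to 10.97% for silymarin. The cause of these changes was not tested. Leaving out silymarin replicate 2 and ursodeoxycholic acid replicate 1 together, and taking the variance prior from named genes alone, were chosen after seeing the data.

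With the replicate number as a block, 0 members passed in every comparison, with a lowest adjusted p of 0.374 in limma for glycyrrhizin against silymarin. Deviations from the group means of arrays with the same number correlated at −0.19 to 0.15 over 18 pairs, above 0.1 in 4. Correlations over all genes cannot tell whether the numbers mark a shared day or culture, which the labels leave unsaid. Among the 28 members dimmer than the median gene the 95% interval reached a median of 1.91-fold to either side, against 1.42-fold among the 43 brighter ones.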
